A study of Mus musculus with 7 samples.

Results

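The regions described here are places where open chromatin was called in RAW264.7 cells after 4 h of RANKL, both without and with the BET inhibitor I-BET, and in no library made without RANKL. They were chosen from the authors' peak calls alone. Overlapping or touching peaks of all 7 lists were joined, and a joined region became a member when both RANKL and both RANKL+I-BET libraries had at least 1 bp of a peak in it while the 2 untreated libraries and the I-BET library had none. This left 1823 members of 344401 regions, or 0.529% of all. Since the calls chose the members, their presence with RANKL and absence without it is a description and was given no test.

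Accessibility was measured by ATAC-seq, which uses a transposase to cut and tag open DNA. All groups were RAW264.7, a macrophage-like mouse cell line widely used as an osteoclast precursor, although the labels' source field names bone marrow. The groups were untreated cells (2 libraries), RANKL at 50 ng/ml (2), the same RANKL with 500 nM I-BET (2), and 500 nM I-BET without RANKL (1, labelled replicate 2). The time of 4 h applies to the treated groups, each library came from 50000 cells, and the labels do not say whether libraries of a group came from separate cultures.

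RANKL is the cytokine that starts osteoclast development. Its receptor RANK signals through NF-kB and the MAP kinases to AP-1 factors such as Fos and Jun, and later to NFATc1, the main regulator of osteoclast genes. BET proteins such as Brd2 bind acetylated histones at promoters and enhancers and help recruit the transcription machinery, and I-BET blocks the pockets that hold the acetyl-lysine.

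Most members lay away from genes' starts, but 30 of them (1.65%) touched 33 RefSeq promoter windows of 30 genes, and these are the members for which sequence was at hand. Each window runs from 250 bases before a transcript start to 50 after it. The windows below were picked after their values were seen, because 4 of them hold an AP-1 motif at members of different strength and 1 belongs to a gene of antigen presentation. They are RefSeq sequence of GRCm38.p6, the C57BL/6J reference and not RAW264.7 itself, written 5′ to 3′ along the gene's strand. Capitals mark TGANTCA (AP-1), GGG and CC with 5 bases between (NF-kB, loose form) and GGAAGT (ETS factors and PU.1), each searched on both strands.
Mmp7, chr9:7691840-7692139, plus strand: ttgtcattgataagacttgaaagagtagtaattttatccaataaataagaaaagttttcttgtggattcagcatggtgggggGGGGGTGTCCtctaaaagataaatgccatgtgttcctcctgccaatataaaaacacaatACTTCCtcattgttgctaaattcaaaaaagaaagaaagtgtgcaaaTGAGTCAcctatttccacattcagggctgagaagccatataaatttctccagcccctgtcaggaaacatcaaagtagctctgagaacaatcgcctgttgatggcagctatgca
H2-Eb1, chr17:34305617-34305916, plus strand: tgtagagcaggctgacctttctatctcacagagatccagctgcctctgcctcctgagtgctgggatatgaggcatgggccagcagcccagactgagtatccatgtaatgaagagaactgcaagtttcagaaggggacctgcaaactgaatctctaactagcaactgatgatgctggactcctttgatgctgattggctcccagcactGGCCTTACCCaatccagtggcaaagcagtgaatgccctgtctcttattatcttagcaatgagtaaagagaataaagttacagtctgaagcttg
Gm35621, chr6:8623057-8623356, plus strand: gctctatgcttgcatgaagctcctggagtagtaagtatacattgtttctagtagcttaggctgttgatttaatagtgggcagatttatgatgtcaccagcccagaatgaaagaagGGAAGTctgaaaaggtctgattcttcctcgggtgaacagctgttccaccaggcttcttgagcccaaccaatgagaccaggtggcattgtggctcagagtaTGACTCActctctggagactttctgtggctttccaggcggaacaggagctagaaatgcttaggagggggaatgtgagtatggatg
Gm30153, chr1:132145177-132145476, minus strand: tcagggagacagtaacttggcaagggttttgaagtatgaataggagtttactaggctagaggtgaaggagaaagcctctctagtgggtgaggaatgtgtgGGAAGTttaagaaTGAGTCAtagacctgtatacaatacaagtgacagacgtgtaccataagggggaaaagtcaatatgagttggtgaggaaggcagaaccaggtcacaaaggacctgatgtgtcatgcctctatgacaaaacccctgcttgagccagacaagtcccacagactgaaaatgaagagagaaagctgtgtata
4930542C21Rik, chr16:38017073-38017372, plus strand: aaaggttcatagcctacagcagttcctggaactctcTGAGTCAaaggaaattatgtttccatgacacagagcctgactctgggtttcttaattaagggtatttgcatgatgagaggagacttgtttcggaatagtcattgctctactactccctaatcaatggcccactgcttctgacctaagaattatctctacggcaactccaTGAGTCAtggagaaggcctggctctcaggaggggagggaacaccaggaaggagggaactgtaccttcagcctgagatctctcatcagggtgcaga

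Mmp7 encodes matrilysin, a secreted protease that cleaves matrix proteins. Its member spans chr9:7691861-7692300 and overlaps 279 bases of the window, with the TGAGTCA starting 63 bases before the transcript start. The -log10 p of its peaks was 3.44 and 4.99 in the RANKL libraries and 2.61 and 5.07 in the RANKL+I-BET libraries, so it was a weak member, at percentile 1.9 of its weakest list. H2-Eb1 encodes a beta chain of MHC class II, which presents peptides to T cells. Its member covers the whole window, had -log10 p values of 7.79 and 16.12 with RANKL and 4.21 and 48.93 with RANKL+I-BET, and had its summits 68 bases after, 64 after, 3 before and 61 after the transcript start in that order.

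Gm35621, Gm30153 and 4930542C21Rik are uncharacterised genes. At Gm35621 the AP-1 match starts 35 bases before the transcript start, and the -log10 p values were 7.79 and 9.19 with RANKL and 14.52 and 19.99 with RANKL+I-BET. For Gm30153 they were 6.43 and 12.03 with RANKL and 6.73 and 59.52 with RANKL+I-BET, and its match lies 137 bases before the start. The window of 4930542C21Rik holds 2 matches, 214 and 45 bases before the start, with -log10 p values of 6.43 and 4.99 with RANKL and 4.80 and 28.26 with RANKL+I-BET. In their weakest library these 3 members stood at percentiles 52.5, 50.2 and 29.6 of the list, a percentile being the rank of a peak by -log10 p among its own library's peaks, as a percentage.

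Of the 33 windows touched by members, 10 (30.3%, exact Clopper-Pearson 95% interval 15.6% to 48.7%) held TGANTCA, against 7.81% of all 32851 windows. The whole window was searched, even where a member overlapped as few as 32 of its bases. At E030007A22Rik and Gm36150 the TGANTCA lay outside the member, and for the other motifs such cases were not counted. The same letters stood in 3 of 21 windows touched by the regions called in both RANKL libraries and nowhere else, in 2 of 21 touched by regions called with RANKL, RANKL+I-BET and I-BET but not untreated, and in 5.49% of windows touched by regions called in all 7 libraries. Such intervals cover counting error only, and the differences were not tested. The windows also differed in base composition, with a median GC content of 47.3% at members against 52.7% over all windows, and its part in the motif shares was not tested.

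GGGCGG, bound by SP and KLF factors, went the other way, with 4 of 33 windows (12.1%, 3.40% to 28.2%) against 35.7% of all. The loose NF-kB form was found in 13 (39.4%, 22.9% to 57.9%, against 50.8% of all), and its stricter form, GGG, any 2 bases and TTTCC, whose matches all lie within those of the loose form, in 2 (6.06% against 1.63%). GGAAGT was in 11 windows (33.3% against 23.8%), TGGAAA of NFAT in 11 (33.3% against 21.4%) and CCACNAGG, the core of CTCF, in 5 (15.2% against 4.99%). TTNCNNNAA was in 15 (45.5% against 36.6%). That pattern was searched for C/EBP but is longer than the C/EBP consensus, so its count does not stand for C/EBP sites. TGACGTCA, the CRE, was in 0 of 33, which allows up to 10.6%, against 1.79% of all. TGTGGT of RUNX was in 2 windows (6.06%, 0.743% to 20.2%, against 16.8% of all). GAAA, any 2 bases and GAAA of IRF was in 1 (3.03% against 3.44%) and TTCNNNGAA of STAT in 4 (12.1% against 8.30%). CACGTG was in 2 (6.06% against 7.15%) and CATGTG in 7 (21.2% against 14.2%). A match is only a run of letters: Mmp7, Gm32143 and Gm32352 each add a pair of neighbouring windows, so the 33 windows are not independent.

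Of the 30 genes with a window at a member, 9 were protein-coding: Mmp7, H2-Eb1, Zfp456, Lrg1, Erich2, Ttc30a2, Lenep, Slc4a4 and Apoa4. Apart from H2-Eb1 the largest -log10 p in this set was 33.48, at Erich2 in RANKL+I-BET replicate 2. Zfp456, a zinc finger gene, had 6.43 and 6.58 with RANKL and 5.42 and 21.3 with RANKL+I-BET. At Slc4a4, a sodium bicarbonate cotransporter, no library exceeded 4.56. A promoter window was touched by 1.65% of members (1.11% to 2.34%), 2.09% of regions called with RANKL alone (1.28% to 3.22%) and 1.29% of regions called also in the I-BET library but not untreated (0.769% to 2.04%), with overlapping intervals. The share was 4.01% over all regions and 22.2% for regions called in all 7 libraries.

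Members were thus mainly distal. Over the 1770 members on chromosomes with known transcript starts, the median distance to the nearest start was 24.7 kb, with 51 (2.88%, 2.15% to 3.77%) within 1 kb, 420 (23.7%) from 1 to 10 kb, 775 (43.8%) from 10 to 50 kb, 284 (16.0%) from 50 to 100 kb and 240 (13.6%) farther. The median was 20.4 kb for regions called with RANKL alone, 25.15 kb for regions called also in the I-BET library, 11.4 kb for regions called in all 7 libraries and 19.6 kb over all regions. The share within 1 kb of a start was 5.83% over all regions. In members it lay below that of RANKL-only regions (5.65%, 4.25% to 7.34%) with no overlap of the intervals. It was close to that of regions called also in the I-BET library (2.52%, 1.75% to 3.51%).

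**Figure D1:**
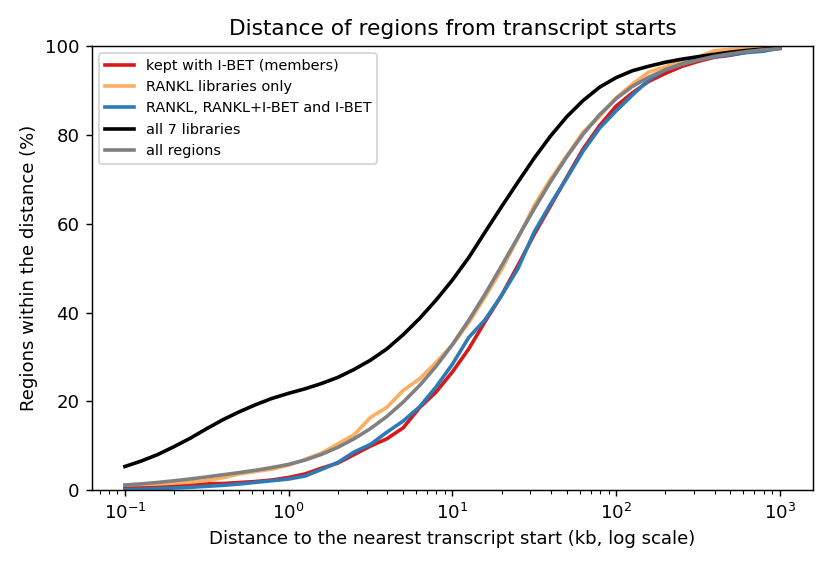
Share of regions (y axis, %) within a given distance of the nearest RefSeq transcript start (x axis, kb, log scale), with 1 line for members, for each of 3 other classes and for all regions. Members (median 24.7 kb) follow the regions called also in the I-BET library (25.15 kb), lie to the right of RANKL-only regions (20.4 kb), and lie far to the right of regions called in all 7 libraries (11.4 kb).

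Distances to protein-coding gene bodies were taken as well. Within 1 kb of either boundary of a gene body, its start or its end, lay 86 members (4.72%, 3.79% to 5.79%). The share was 8.59% (6.89% to 10.5%) for RANKL-only regions and 4.46% (3.44% to 5.68%) for regions called also in the I-BET library. It was 27.2% for regions called in all 7 libraries and 9.01% for all regions. Inside a gene body lay 954 members (52.3%, 50.0% to 54.6%), against 58.0% (54.8% to 61.2%) of RANKL-only regions, 53.2% (50.5% to 55.8%) of regions called also in the I-BET library, 66.6% of regions called in all 7 libraries and 57.9% of all regions. Peak strength moved with the difference between members and RANKL-only regions: in the RANKL libraries, RANKL-only regions had a median within-list percentile of 29.3 and 11.4, against 53.7 and 36.7 for members. Its part in the location shares was not tested.

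The median member was 534 bp long (quartiles 471 and 630.5), against 348 bp for RANKL-only regions and 1312 bp for regions called in all 7. A region joined from more lists has more chances to be long, so this follows partly from the rule. Members were spread over every chromosome but Y, from 0.349% of the regions on chromosome 11 to 1.01% (33 of 3259) on chromosome X. Chromosome 1 held the most, 180, which is 0.671% of its regions. The nearest region called in all 7 libraries lay a median of 10.6 kb away.

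Most members had a peak of a library without RANKL nearby. The nearest peak of any library without RANKL was a median of 1.879 kb from the member and within 10 kb for 1593 of them (87.4%). This was usual: among all 121512 regions with no peak in those 3 libraries the median was 1.552 kb and the share 88.3%, and for RANKL-only regions they were 1.134 kb and 91.0%. By library the median was 4.00 kb for untreated replicate 1, 4.28 kb for untreated replicate 2 and 3.45 kb for I-BET. The closest such peak ended 2 bp from its member, so some members lie directly beside a peak of a library without RANKL.

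The calls behind the members differed among libraries. The 7 lists held 117175 to 166369 peaks, of which 25.3% in untreated replicate 1 and 74.0% in RANKL+I-BET replicate 2 had a -log10 q of at least 5. Regions that only 1 library called made up 8.95% (untreated replicate 2) to 42.9% (untreated replicate 1) of its regions. As a check of the cell type, all 8 macrophage markers had a region called in all 7 libraries, as did 2 of 4 B cell, 3 of 4 T cell, 1 of 6 fibroblast and osteoblast and 2 of 4 granulocyte and erythroid markers. At promoter windows such a region stood at 4 of the 8 macrophage markers, at 1 granulocyte or erythroid marker and at 0 of the rest.

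The calls also followed the replicate number. Regions called in all 4 libraries numbered 2 and in none numbered 1 came to 2746, more than the 1823 members, and the opposite pattern to 703. The reverse of the membership rule, called in both untreated libraries and in I-BET but in no library with RANKL, was met by 84 regions (0.0244%). What a replicate number stands for is not stated in the labels.

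Among the 8594 regions that both RANKL libraries and no untreated library called, members made up 21.2%. Those called in RANKL+I-BET replicate 2 but not in replicate 1 or I-BET were more frequent, at 2889 (33.6%), and the opposite case, replicate 1 without replicate 2 or I-BET, came to 171 (1.99%). A further 1390 (16.2%), which are 0.404% of all regions, had calls in I-BET beside both RANKL+I-BET libraries. Another 955 (11.1%), or 0.277% of all regions, were called in none of the 3 libraries with I-BET.

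Near misses of the rule outnumber the members. A single missing call kept out 939 regions (RANKL replicate 1), 1766 (RANKL replicate 2), 2889 (RANKL+I-BET replicate 1) and 171 (RANKL+I-BET replicate 2). A single extra call kept out 650 regions through untreated replicate 1, 2893 through untreated replicate 2 and 1390 through I-BET, and the weakest of these extra calls stood at percentiles 0.854, 0.423 and 1.78 of their lists. Just inside the rule, the 4 weakest members stood at percentile 0.13 in RANKL+I-BET replicate 1, each with a -log10 p of 2.15 there. They were chr11:24300001-24300565, 126443 bp from Bcl11a, chr3:101015897-101016483 inside Cd101, chr4:95089930-95090366, 37708 bp from Jun, and chr8:35428694-35429422, 35843 bp from Eri1.

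The score, the fold and the -log10 values of a peak come from the authors' caller, and they rank peaks within 1 list only, so they are not compared in size between libraries. The median member peak had a -log10 p of 6.43 and 5.77 in the RANKL libraries and of 5.42 and 16.2 in the RANKL+I-BET libraries, replicate 1 first. As ranks, these were the percentiles 53.7, 36.7, 41.0 and 50.8. The deposited fold over local background had medians of 3.52, 3.94, 3.25 and 3.71 in the same order.

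Most members were therefore middling or weak peaks. Above percentile 50 in all 4 lists stood 106 members (5.81%), and 429 stood below it in all 4. A -log10 q of at least 5 was reached in all 4 libraries by 135 members (7.41%), in 3 by 425, in 2 by 547, in 1 by 584 and in none by 132. RANKL+I-BET replicate 2, the list with the most peaks, reached it at 88.9% of members, against 74.0% of all its peaks. RANKL+I-BET replicate 1 reached it at 26.8% of members, against 48.1% of all its peaks. For RANKL replicates 1 and 2 the shares were 44.1% and 31.8% of members, against 44.6% and 55.6% of peaks. For regions called in all 7 libraries the median percentile was 81.6 to 86.4 in the same 4 libraries.

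**Figure D2:**
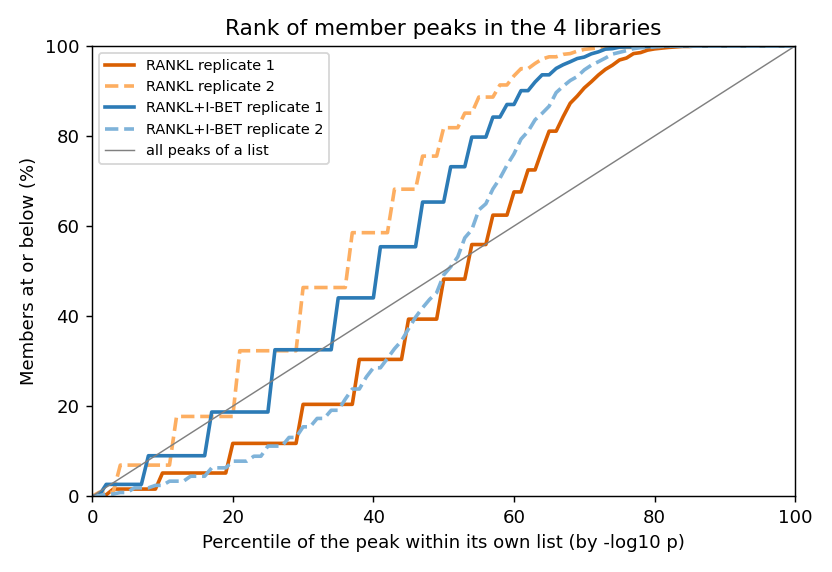
Cumulative share of members (y axis, %) by the percentile of their peak among all peaks of the same library (x axis), with 1 line for each of the 4 RANKL and RANKL+I-BET libraries and a grey line for all peaks of a list. The medians are 53.7 and 36.7 with RANKL and 41.0 and 50.8 with RANKL+I-BET, and the highest member of any list stands at 85.7; steps are peaks that share a -log10 p.

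The strength of a member went with replicate number. Across the 1823 members, Spearman's rho of -log10 p was 0.53 between RANKL replicate 2 and RANKL+I-BET replicate 2 and 0.42 between RANKL replicate 1 and RANKL+I-BET replicate 1, against 0.22 between the 2 RANKL and 0.25 between the 2 RANKL+I-BET libraries. Pairs that shared neither treatment nor number gave 0.36 and 0.13. This was not particular to members. In regions called also in the I-BET library, rho was 0.58 (replicates 2) and 0.43 (replicates 1) between treatments. Within treatments it was 0.27 (RANKL) and 0.28 (RANKL+I-BET) there. Points of this description share their library's depth and background, and they are regions, not replicates.

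Summits, which the rule did not use, lay about as close between treatments as within them. The median distance between the summits of a member in 2 libraries was 78 bp for the RANKL pair and 65 bp for the RANKL+I-BET pair, a mean of 71.5 bp. Between treatments it was 80, 55, 81 and 55 bp, a mean of 67.75 bp, the 2 lower values being the pairs with RANKL+I-BET replicate 2. Summits within 50 bp of each other were found at 37.1% to 48.4% of members, depending on the pair. In regions called also in the I-BET library the median distances of the same pairs were 45 to 74 bp. Groups of 2 libraries are too few for an exact test of this difference, and none was made.

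**Figure D3:**
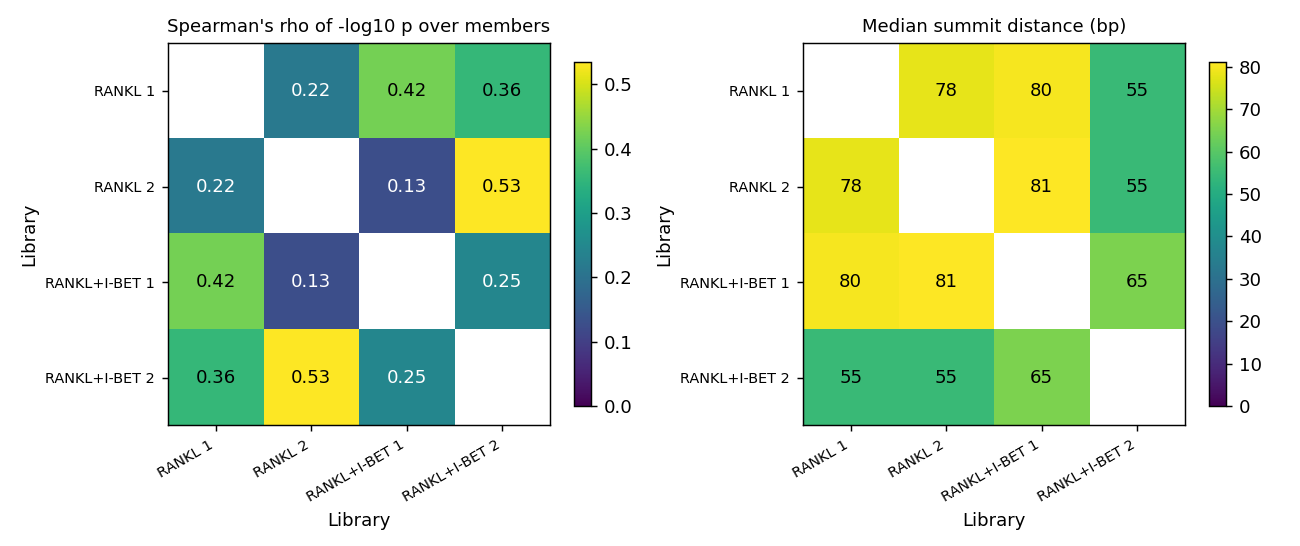
Likeness of the 4 libraries at the 1823 members, for each pair of libraries: left, Spearman's rho of the peaks' -log10 p; right, the median distance between summits (bp). The 2 highest rho values (0.53 and 0.42) belong to pairs with the same replicate number, and the shortest summit distances (55 bp) to pairs of a RANKL library with RANKL+I-BET replicate 2.

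The strongest member, ranked by its lowest percentile over the 4 libraries, lay inside Dop1a, a gene of membrane traffic, at chr9:86499058-86499675. Its -log10 p was 33.34 and 42.98 with RANKL and 16.28 and 139.99 with RANKL+I-BET, and its fold 9.38 and 14.78 with RANKL and 6.10 and 12.73 with RANKL+I-BET. Even its lowest percentile was 70.5, and a weaker member followed in the same gene at chr9:86535887-86536354, with -log10 p values of 9.23, 9.19, 11.19 and 26.11. The next, at chr1:175851282-175852106 and 28662 bp from Exo1, an exonuclease of DNA repair, had 47.97 and 42.98 with RANKL and 15.39 and 129.85 with RANKL+I-BET.

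Next in rank was a region at chr5:146821971-146822561, 10329 bp from the ribosomal protein gene Rpl21, with 18.39 and 23.97 with RANKL and 14.52 and 61.34 with RANKL+I-BET. Near Rasd2, a small GTPase, the region chr8:75233829-75234566 had 23.1 and 16.12 with RANKL and 17.18 and 62.26 with RANKL+I-BET. Nearest to Dusp4, a phosphatase that switches off MAP kinases, was a region 170843 bp away, at chr8:34635897-34636767, with 14.84 and 15.07 and then 16.28 and 58.62. The region at chr7:117025645-117026285 was 354694 bp from its nearest gene, Xylt1, so a nearest gene is a position and not a target. Others of the 12 strongest lay inside Lpp, an adhesion protein with LIM domains, inside Grip1, a PDZ scaffold, inside Ccdc80, a secreted matrix protein, and 60431 bp from Gm4606.

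Tfec, a macrophage relative of Mitf, had one of the sharpest members, 2170 bp from the gene at chr6:16828272-16828757. Its -log10 p was 29.12 and 14.03 with RANKL and 15.39 and 32.72 with RANKL+I-BET, and the 4 summits fell within 8 bp. The nearest untreated peaks were 62897 and 54794 bp away, and the nearest I-BET peak 5083 bp. Similar precision was seen at chr1:164977309-164977828 near Xcl1, where the 4 summits fell within 10 bp and the -log10 p was 22.13 and 19.39 with RANKL and 12 and 47.23 with RANKL+I-BET. Such agreement was not general among the strongest: at Dop1a, Exo1 and Grip1 the summits ranged over 244, 249 and 288 bp.

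The 135 members with a -log10 q of at least 5 in all 4 libraries had 2 within 1 kb of a gene's start or end (1.48%, 0.180% to 5.25%). Inside a gene lay 59 of them (43.7%, 35.2% to 52.5%), and both intervals reach the values of all members. The 123 of them within 100 kb of a gene were spread over 117 genes, of which 5 had more than 1: Magi1 with 3, and Dop1a, Slc9a9, Cth and Gm6377 with 2 each. At genes of the lists described next there were 4, at Tfec, Bcl6, Klf4 and Gbp5.

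Most genes near a member had only 1, as counted here without a like count for other classes. Members were sparse, at 0.519% of the regions within 100 kb of a gene, so the counts do not set them apart. The 1629 members within 100 kb of a gene had 1432 nearest genes, of which 1268 had 1 member, 140 had 2 and 24 had 3 or more, and the other 194 members lay farther from any gene. Magi1, a scaffold of cell junctions, and Scg5, a secreted chaperone of a prohormone protease, had 5 each. Magi1 has 125 regions in its 608 kb and around it, while Scg5 has only 19, of which 26.3% were members. Over all 314105 regions within 100 kb of a gene the share was 0.519%. Since Scg5 was picked for its number of members, its higher share follows from that choice. The share was higher still at Gm6377, with 3 of 8 regions (37.5%). Bcar3, an SH2 adaptor, Nrg1, the growth factor neuregulin, Rapgef5, an exchange factor for Rap GTPases, Slc7a14 and the chemokine gene Xcl1 had 4 each, of 126, 54, 119, 64 and 77 regions. Arl15, Bcat1, Bcl2, Btg1 and Dlgap2 had 3 each.

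At Scg5 the 5 members lay between 6986 bp outside the gene and its interior, and none was strong. The first, at chr2:113768908-113769327, had -log10 p values of 8.50 and 4.26 with RANKL and 4.21 and 10.06 with RANKL+I-BET. The next, at chr2:113773273-113773759, had 5.16, 5.77, 4.80 and 9.56 in the same order, and the I-BET library had a peak 22 bp from it. The 3 inside the gene ranged from 2.90 to 9.56 over all 4 libraries. Within 45 kb to either side of their middle there were 7 and 10 peaks in the untreated libraries, 9 in I-BET, 18 and 16 with RANKL and 19 and 20 with RANKL+I-BET. The rule puts the members' own peaks in the last 4 libraries only. Outside the members, RANKL had 13 and 11 peaks and RANKL+I-BET 13 and 15, against the same 7, 10 and 9 in the others, at a gene picked for its number of members.

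Xcl1 and Bcar3 each held 4 members within 50 kb. The 4 at Xcl1 lay within 35.2 kb, 22500 to 56892 bp from the gene, and 1 of them was among the 12 strongest. In the weakest of them, at chr1:164992414-164993236, the -log10 p was 16.59 and 2.90 with RANKL and 8.87 and 11.64 with RANKL+I-BET. Outside the members, the same width held 14 and 6 peaks untreated, 18 in I-BET, 26 and 10 with RANKL and 9 and 18 with RANKL+I-BET, so the groups overlapped. The 4 at Bcar3 lay within 45.2 kb inside the gene, with -log10 p from 2.29 to 21.97. In all there were 12 groups of at least 3 members within 50 kb, holding 38 members, with no like count for other classes. Further groups of 3 lay at Gm6377 (23.4 kb), Magi1 (25.2 kb) and Fkbp1a with Sdcbp2 (26.1 kb).

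**Figure D4:**
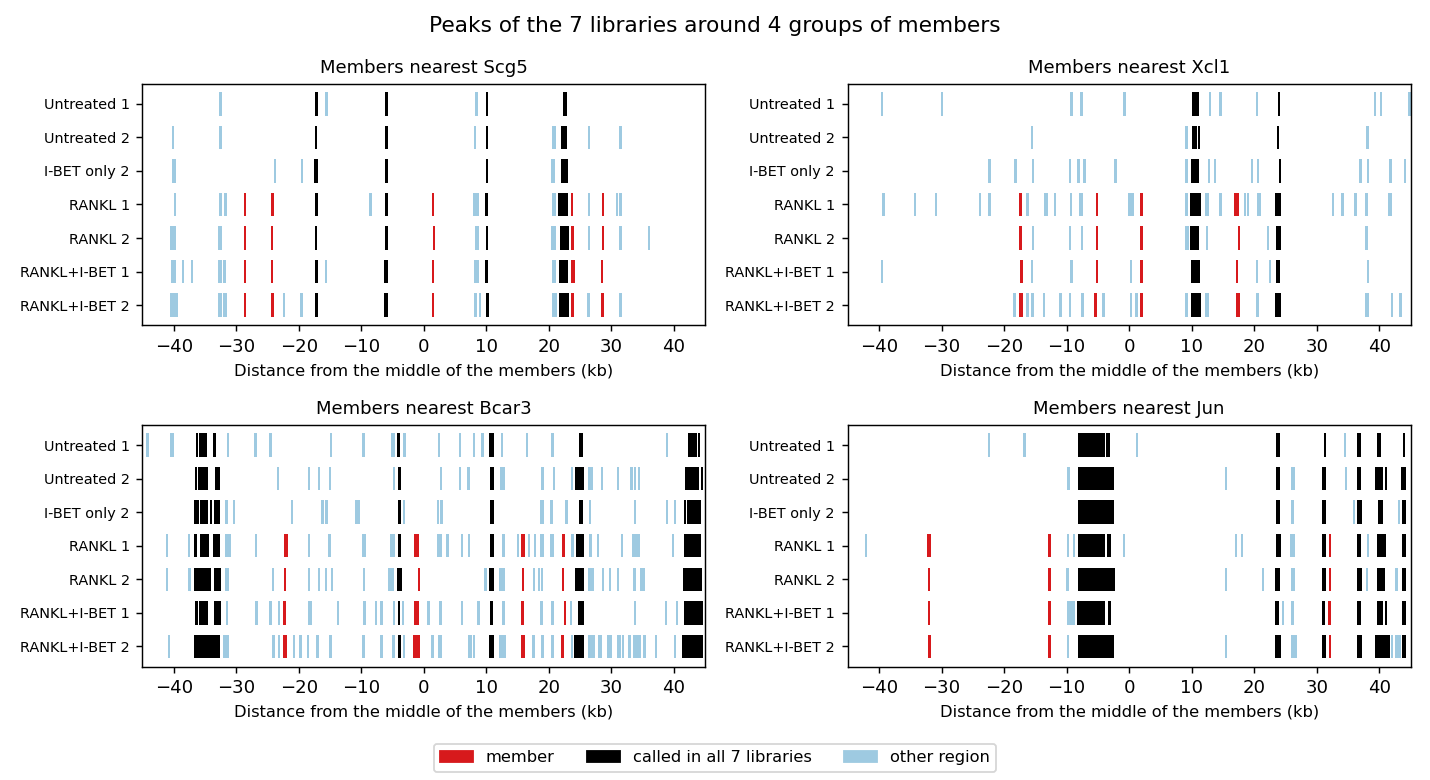
Peaks of the 7 libraries (rows) around the members nearest Scg5, Xcl1, Bcar3 and Jun, by distance from the middle of those members (x axis, kb); bars are peaks, red in members, black in regions called in all 7 libraries and blue in other regions. The 5, 4, 4 and 3 members appear as red bars in the 4 lower rows only, as the rule demands; outside the members the Jun rows with RANKL hold 11 to 15 peaks and the other rows 9 to 12.

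At the genes of the 16 lists there were 44 members of 7441 regions (0.591%, 0.430% to 0.793%), at 37 genes, close to the 0.519% of all regions within 100 kb of a gene. The interval of every list included that background, so no list is described as holding more or fewer members than other genes. AP-1 subunits and partners had 6 of 616 (0.974%, 0.358% to 2.11%), but 1 when a -log10 q of at least 5 was asked of each peak and 16 without untreated replicate 2. Lists on which no member fell were BET proteins and elongation factors (0 of 445, which allows up to 0.826%, but 2 regions at that -log10 q and 5 without untreated replicate 2), the respiratory chain (0 of 184), B lymphocyte (0 of 208), T lymphocyte (0 of 181) and granulocyte and erythroid markers (0 of 77).

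**Figure D5:**
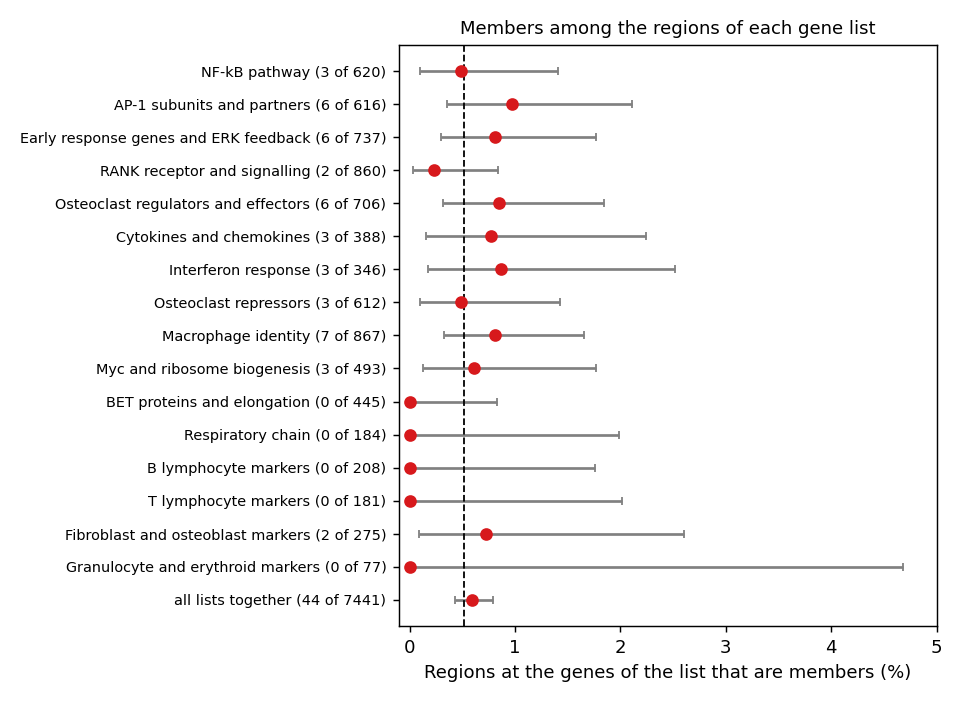
Share of regions at the genes of each list that are members (x axis, %), with exact 95% intervals as bars; the dashed line is the 0.519% over all regions within 100 kb of a gene. Every interval crosses the line, from 0 of 445 regions at BET and elongation genes to 6 of 616 at AP-1 genes.

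Among AP-1 genes, Jun had 3 members of its 37 regions, and Jdp2, Fosl2 and Maf had 1 each. Jun is an early gene and the main partner of Fos. Its member at chr4:95045099-95045603, 3433 bp from the gene, had -log10 p values of 11.54 and 4.99 with RANKL and 13.66 and 15.62 with RANKL+I-BET. Another, at chr4:95025741-95026345, had 7.10 and 8.29 and then 3.65 and 19.35, and the nearest peak without RANKL was 9151 bp away. The third, at chr4:95089930-95090366, is one of the 4 weakest of all members. Around Jun, outside the members, the untreated libraries had 11 and 12 peaks, I-BET 9, RANKL 15 and 12 and RANKL+I-BET 11 and 11, so the groups overlapped. Fosl2, a Fos relative, had a member 5461 bp away with 5.16, 5.77, 3.11 and 11.64, and Jdp2, which represses AP-1 sites, one 19435 bp away with 9.98, 5.77, 7.43 and 17.45.

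In the NF-kB list, Rel, Nfkbiz and Ikbke had 1 member each, of 620 regions at the list. Rel encodes a subunit of NF-kB that is induced in activated cells. Its member at chr11:23772640-23773238 lay 1671 bp from the gene, with 11.54 and 12.03 with RANKL and 6.07 and 36.59 with RANKL+I-BET, and peaks of all 3 libraries without RANKL came within 740 bp. Nfkbiz, a nuclear inhibitor protein that also activates some NF-kB targets, had a member 915 bp away at chr16:55809384-55810460, with 8.50, 3.56, 4.80 and 7.18. At Ikbke, a kinase related to the IkB kinases, the values were 13.99, 6.58, 8.14 and 12.73.

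Osteoclast regulators and effectors had 6 members of 706 regions, at Mitf, Atp6v1c1 and Tfec. Mitf, a factor that acts on osteoclast genes with NFATc1 and PU.1, had 3. The one at chr6:97961760-97962821 had -log10 p values of 5.78 and 11.06 with RANKL and 6.07 and 84.31 with RANKL+I-BET, and its nearest untreated peaks were 32185 and 7786 bp away. The one at chr6:97863273-97863759 had 9.23, 7.42, 5.42 and 48.93, with its 4 summits within 19 bp, and the one at chr6:97802728-97803328 had 3.44, 3.56, 6.07 and 19.35. The 4 summits of the first of these ranged over 177 bp. Atp6v1c1, a subunit of the proton pump, had 2 neighbouring members 635 and 1615 bp away, of 5.16, 5.77, 5.42 and 24.01 and of 7.79, 9.19, 6.07 and 21.97.

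RANK signalling genes had 2 members of 860 regions (6 at a -log10 q of at least 5 and 17 without untreated replicate 2), at the phospholipase Plcg2 (5.16, 14.03, 6.73 and 31.21) and the kinase Tec (7.79, 4.99, 3.65 and 12.18). Repressors of osteoclast development had 3 of 612, at Bcl6, Irf8 and Zeb1. Bcl6, a zinc finger repressor, had a member 56942 bp away with 8.50 and 9.19 with RANKL and 8.87 and 38.17 with RANKL+I-BET. That of Irf8, a factor that holds macrophages from becoming osteoclasts, lay 44708 bp away with 5.16, 4.99, 4.21 and 3.60, and untreated replicate 1 had a peak 61 bp from it.

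Early response genes and feedback inhibitors of ERK had 6 of 737 regions, at Klf4 and Klf6 (2 each), Spred2 and Spry2. Klf4 had a member 283 bp from the gene, with 16.59 and 4.26 with RANKL and 7.43 and 26.11 with RANKL+I-BET, and its 4 summits fell within 54 bp. Of the 2 at Klf6, the one at chr13:5950235-5950782 had 11.54, 15.07, 6.07 and 68.77, and the nearest peak without RANKL was 10440 bp away. Cytokines and chemokines had 3 of 388: Ccl3, a chemokine for monocytes, with a member 328 bp away (4.56, 6.58, 5.42 and 14.44), Il15 (5.78, 5.77, 8.14 and 18.71) and Ptgs2, which makes prostaglandins (5.78, 14.03, 8.14 and 42.22, at 89317 bp).

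Interferon response genes had 3 of 346, at Ddx58, Ifi44 and Gbp5. The member at Gbp5, a guanylate-binding protein of host defence, had 16.59 and 8.29 with RANKL and 18.09 and 13.30 with RANKL+I-BET. Macrophage identity genes had 7 of 867, 1 each at Adgre1, Cbfb, Cebpb, Marco, Runx1, Tlr2 and Tlr4. At Marco, a scavenger receptor, the call rested on a -log10 p of 2.01 in RANKL replicate 1, and untreated replicate 2 had a peak 18 bp away. Myc and ribosome biogenesis genes had 3 of 493, at Mlx, Mxi1 and Odc1, and fibroblast and osteoblast markers 2 of 275, at Col3a1 and Spp1. Of the genes named whatever their count, Nfatc1 had 0 members of 76 regions, Fos 0 of 50, Myc 0 of 52, Brd2 0 of 9, Acp5 0 of 18 and Ctsk 0 of 14. Members were 0.519% of all regions within 100 kb of a gene, so with so few regions a count of 0 does not set these genes apart.

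Of 1005 miRNA hairpins, 13 (1.29%) lay within 5 kb of 9 members, while 823 (81.9%) lay within 5 kb of any region. These mature sequences show the cluster nearest to one member and the hairpin that a member contains, with the seed (bases 2 to 8) in capitals.
miR-25-3p: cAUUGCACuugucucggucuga
miR-93-5p: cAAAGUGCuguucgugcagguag
miR-106b-5p: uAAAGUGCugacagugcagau
miR-1955-5p: aGUCCCAGgaugcacugcagcuuuu
miR-93-5p and miR-106b-5p share a seed and miR-25-3p has another. Their hairpins lay 1758, 1972 and 1556 bp from the member at chr5:138162744-138163765, whose -log10 p was 2.93 and 4.26 with RANKL and 2.61 and 7.63 with RANKL+I-BET, low in every list. The hairpin of miR-1955 lies within the member at chr2:92191841-92192258, nearest Phf21a, which had 9.23 and 3.56 with RANKL and 8.87 and 9.56 with RANKL+I-BET. The levels of these miRNAs were not analysed here.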

How the data were processed

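Open chromatin was measured by ATAC-seq in 7 libraries. The tools, per the submitters' processing notes, were MACS2, Bowtie2, SAMtools, Picard, bedtools, cutadapt and FastQC and the build was mm10, while roles, versions and settings are not given in the sources used here. The deposited lists are 1 per library, with peaks called in each library by itself. A deposited line holds a start, end and summit, a score (the whole part of 10 times the -log10 p in 100% of lines), a fold, which is the ratio of pileup to local background, and -log10 p-values and q-values. No reads were counted here, so library depth is unknown. The number of peaks is given, but it was not shown to follow depth. Untreated replicate 2 had 117175 peaks, 61.3% of them with a -log10 q of at least 5. Untreated replicate 1 had 136739, with 25.3%.

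The 975394 peaks were joined into 344401 regions with Python 3.11.15, pandas 2.3.3, numpy 2.4.6 and SciPy 1.17.1, in code tested on simulated peaks. Where a library had several peaks in a member, the one with the highest -log10 p was used. Shares have exact Clopper-Pearson 95% intervals, and no test was made. Regions were assigned to the nearest protein-coding gene body of a RefSeq table for GRCm38.p6, and counted at a list's gene within 100 kb of it. That table has no strand or exons, so exon, intron and UTR positions were not analysed here. Transcript starts came from the RefSeq promoter windows, which do not cover chromosome 18. Of 361 list genes 359 were in the table.

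The members and the 16 gene lists were chosen with earlier results of these data known. Genes were named by a rule: the 12 with most members, up to 4 per list, those of the 12 strongest members and of the 8 strongest within 1 kb of a start, the 5 tightest groups, and Nfatc1, Fos, Jun, Myc, Nfkbiz, Rel, Irf8, Brd2, Acp5 and Ctsk. Genes named for a promoter window, for a miRNA or as the weakest members fall outside it and were chosen after their values were seen, as were the motif search in promoter windows and the members with a -log10 q of at least 5 in all 4 libraries. Not every gene that the rule names is described.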

Additional observations from a re-analysis of the deposited data

How the results depend on the processing

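The number of regions that meet the rule moved with the libraries used, and the shares did not move beyond their intervals except with another annotation. Leaving out 1 library at a time gave 1994 to 4716 regions, against 1823: 2473 without untreated replicate 1, 4716 without untreated replicate 2, 3213 without I-BET, 2762 and 3589 without RANKL replicate 1 and 2, and 4712 and 1994 without RANKL+I-BET replicate 1 and 2. The libraries numbered 1 alone gave 26464 and those numbered 2 alone 15258. These 2 counts come from unlike rules, since only the libraries numbered 2 include an I-BET library in which a peak must be absent. A -log10 q of at least 5 gave 1414, of which only 135 were members, and peaks that cover at least 50% of the region gave 2170 with 664 members among them. Lists of equal length gave 1427 (1212 members) and joining peaks within 100 bp gave 1776. Members at list genes numbered 44, and 47 to 124 with 1 library left out, of which 124 came without untreated replicate 2 and 114 without RANKL+I-BET replicate 1. List by list, 93 of the 176 values under an alternative differed from the reported count by 1.5 times or more, or left 0. With 1 library left out, the share within 1 kb of a gene's start or end stayed from 4.61% to 5.72% and the share inside a gene from 52.3% to 54.1%. Counting every gene of the table in place of protein-coding ones gave 10.6% and 62.0%, since more genes are counted. Summit distances of 71.5 bp within and 67.75 bp between groups became 65.0 and 62.25 bp with the closest pair of summits, and 66.5 and 64.25 bp in members with 1 peak per library.

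No paired analysis was possible because the results come from no test, and the counts within each replicate number are descriptions. No genome of the build was at hand, so the motif search within members was not run. Intervals cover counting error only, and they do not cover variation between libraries or cultures. With no read counts, accessibility below the caller's threshold was not measured.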
